A study of Sus scrofa with 61 samples.

Results

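The genes described are those of the swine leucocyte antigen complex (SLA, the major histocompatibility complex of the pig) and their partners in antigen presentation: SLA-1, SLA-2, SLA-3, SLA-DRA, SLA-DRB1, SLA-DQA1, SLA-DQB1, B2M, CD74 and TAP1. A probe was a member if the gene name in the scanner files, or the symbol in the additional gene lists of the study, was one of these 10. The rule found 48 probes of 9 genes among 60305 probes, which carry 14730 gene names, and SLA-2 had no probe under its own name. RNA of longissimus muscle, the long muscle of the back, from 61 fetuses was read on single-colour Agilent arrays, 1 fetus an array, at day 90 and day 110 of gestation. The study asked how muscle matures in a breed with frequent deaths at birth, Large White (LW), and a breed with few, Meishan (MS). At day 90 each of the 4 genotypes had 8 fetuses, and at day 110 LW had 9, LWMS had 8, MS had 7 and MSLW had 5. LWMS fetuses had an MS dam and an LW sire, and MSLW fetuses had an LW dam and an MS sire. Only male fetuses were used, by the study's methods. Each litter had sires of both breeds and so held fetuses of a pure breed beside crosses. A purebred MS fetus therefore always lay in an MS sow and an LW fetus in an LW sow, and the breed of the fetus and that of its dam cannot be told apart in the purebred comparison. The labels do not name the sow, littermates count as separate fetuses, and the p-values measure the spread between these fetuses.

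Class I molecules sit on nearly all nucleated cells and show peptides from inside the cell to cytotoxic T cells. They consist of a polymorphic heavy chain, here encoded by SLA-1 and SLA-3, and the invariant light chain beta-2-microglobulin (B2M), and TAP1 is a subunit of the transporter that brings peptides to them. Class II molecules are mainly found on macrophages, dendritic cells and B cells and present ingested antigen. They pair an alpha with a beta chain, SLA-DRA with SLA-DRB1 and SLA-DQA1 with SLA-DQB1, and CD74, the invariant chain, guards their groove until a peptide is loaded. Interferons raise the transcription of both classes. The muscle fibre itself holds little class I and usually no class II, and resident macrophages of the tissue carry class II.

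The heavy chains and the DQ chains differ between haplotypes, and a 60-base probe can fit the allele of one breed better than that of the other. A difference in RNA level and a difference in fit cannot be told apart for a single probe of these genes. The probes on which the results turn are therefore shown, 5′ to 3′, as the scanner files hold them, whole or as a stretch of 30 bases. The files name no genome build, and no coordinates are given. The first pair is a probe named SLA-1 and one named SLA-3, both also listed for SLA-2. They overlap over 59 bases with 4 mismatches, which are in capitals (G7C, G18T, G19A and C39G, the SLA-1 probe's base first, positions counted from 1 at its 5′ end).
SLA-1 A_72_P440391: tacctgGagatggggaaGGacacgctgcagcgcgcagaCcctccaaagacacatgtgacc
SLA-3 A_72_P440386: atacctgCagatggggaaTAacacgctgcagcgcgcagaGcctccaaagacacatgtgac
The second pair is of SLA-3 probes identical at 55 of 57 overlapping bases. Capitals mark 1 of the 2 substitutions, C30A, counted on the first of them, and the other, A60G, lies outside the stretch.
SLA-3 A_72_P515992: cacagttccaagggtCggtttagaaatagg
SLA-3 A_72_P609764: cacagttccaagggtAggtttagaaatagg
Next come stretches of 3 overlapping SLA-1 probes, in which capitals mark the substitution T42A, counted on the first of them. A further substitution between the first and the last of them, A23G, lies outside the stretch.
SLA-1 A_72_P035616: gagagatttcctTagtttgaaagaggaaat
SLA-1 CUST_366_PI427286967: gagagatttcctTagtttgaaagaggaaat
SLA-1 A_72_P124686: gagagatttcctAagtttgaaagaggaaat
The SLA-DQB1 probes follow, of which the first and the second share the 17 bases in capitals.
SLA-DQB1 A_72_P039061: tcctattttccctCAACAGACTGTGCAAGA
SLA-DQB1 A_72_P585101: CAACAGACTGTGCAAGAgaagcacattgaa
SLA-DQB1 A_72_P672583: tttggggttggtttttgctcttcttaaagt
SLA-DQB1 A_72_P631166: cctcaattatgtctgggatggtggctctgc
The SLA-DQA1 probes did not overlap.
SLA-DQA1 A_72_P743257: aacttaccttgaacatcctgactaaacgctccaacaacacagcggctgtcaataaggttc
SLA-DQA1 A_72_P765361: ctcagtgaccctaaattaatatgtacatgg

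All 48 probes passed the filter on dim spots, which kept a probe if 80% or more of the arrays in some group had it well above background, and 43 were well above background on all 61 arrays. The exceptions were both SLA-DQA1 probes, 2 of the 3 TAP1 probes and CD74 O12719. Of the 15 SLA-1 and SLA-3 probes, 3 are listed for transcripts of 2 or more class I genes and may read several of them. These are A_72_P440391, A_72_P440386 and A_72_P683231, and SLA-2 is among the genes listed for each. The main SLA-1 probe, CUST_238_PI427286967, carries the description of another gene in the files but matches a further SLA-1 probe, CUST_30_PI427286967, at 57 of 58 bases. Between 34347 and 45684 spots an array were above background, and every one of the 8 slides held at least 6 of the 8 groups. All 12 muscle fibre markers looked up were above background on all 61 arrays, while the T cell receptor genes CD3D, CD3E and CD3G were dim and not kept. Some fetuses stood apart from their group. MS replicate 2 at day 90 was the highest of its 8 fetuses for 37 of the 48 probes, lying 0.66 log2 units above the group mean over the 24 class I and B2M probes, 0.18 over the 21 class II and CD74 probes and 0.90 over 22 interferon-stimulated genes. MS replicate 4 at day 90 was the lowest for 28 probes. MSLW replicate 3 at day 110 was the highest of 5 for 38 probes. The counts over the 48 members without the first of these are given for the breed difference and for the age change in MS.

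Each gene was first read by its main probe, the kept probe with the highest mean, on the scale of quantile-normalized log2 intensity. SLA-1, the class I heavy chain probe CUST_238_PI427286967, had a median of 14.78 in LW at day 90 (14.51 to 15.16) and of 15.52 in MS (14.96 to 16.04). At day 110 the LW fetuses gave 14.65 to 15.43 (median 14.89) and the MS fetuses 15 to 15.55 (median 15.35). The purebred ranges overlapped at both days, and at day 90 the MS median lay above every LW fetus. The crosses lay between, with medians of 15.31 in LWMS and 15.24 in MSLW at day 90 and 15.22 in LWMS at day 110, and the 5 MSLW fetuses at day 110 gave 14.70, 15.33, 15.77, 15.23 and 15.33. Ordered by group mean, no neighbouring groups of SLA-1 differed by more than the larger SD of the pair. SLA-3, the other heavy chain (A_72_P649741), was lowest in LW at day 90 (12.67 to 14.01, median 13.12) and highest in MS at day 90 (13.55 to 14.86, median 14.19). At day 110 the LW fetuses gave 12.90 to 13.69 (median 13.45) and the MS fetuses 13.56 to 13.95 (median 13.83), and the ranges overlapped only between 13.56 and 13.69.

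B2M, the shared light chain (CUST_232_PI427286967), separated the purebreds at day 90. In LW the 8 fetuses lay between 14.34 and 14.45 (median 14.39), and the 8 MS fetuses lay between 14.73 and 15.68 (median 15.18), with no overlap. The crosses at day 90 were intermediate and close to each other, with 14.63 to 15.05 for LWMS (median 14.84) and 14.61 to 15.05 for MSLW (median 14.81). At day 110 LW spread from 13.97 to 15.04 (median 14.31) and included every MS value, 14.51 to 14.87 (median 14.69). TAP1, the transporter subunit (O4777), gave 11.02 to 11.47 (median 11.27) in LW and 11.44 to 12.48 (median 11.72) in MS at day 90, and 10.18 to 11.47 (median 10.77) and 10.89 to 11.32 (median 11.21) at day 110. Its purebred ranges met between 11.44 and 11.47 at day 90 and overlapped widely at day 110.

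Among class II, every day 90 mean of SLA-DRA (A_72_P176171) lay above every day 110 mean. LW at day 90 was only 0.08 above MSLW at day 110, within the larger SD of 0.29. Its medians in the order LW, LWMS, MSLW and MS were 11.92, 12.29, 12.46 and 12.47 at day 90, and 11.64, 11.48, 11.81 and 11.82 at day 110. The step between LWMS and LW at day 90, of 0.38, was the only one between neighbours beyond the larger SD of the pair, 0.28. SLA-DRB1, its partner chain (A_72_P545751), had medians, in the same order, of 11.52, 11.57, 11.48 and 11.37 at day 90 and 11.01, 10.81, 11.03 and 10.89 at day 110, so that no genotype stood above the others. The beta chain SLA-DQB1 (A_72_P039061) was highest in MS and MSLW, with medians of 12.28 and 12.25 at day 90, against 11.65 in LW. At day 110 the 5 MSLW fetuses gave 11.90, 11.52, 12.08, 11.70 and 11.62, and the LW fetuses ran from 10.71 to 11.71. The alpha chain SLA-DQA1 (A_72_P743257) was dim and at day 90 spread widely in the LW fetuses (5.59 to 9.20) and the LWMS fetuses (5.18 to 8.60), against 7.87 to 9.25 for MS and 7.89 to 9.02 for MSLW. CD74 (A_72_P395573) moved little, with group medians between 9.72 in LW at day 110 and 10.28 in MS at day 90.

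**Figure D1:**
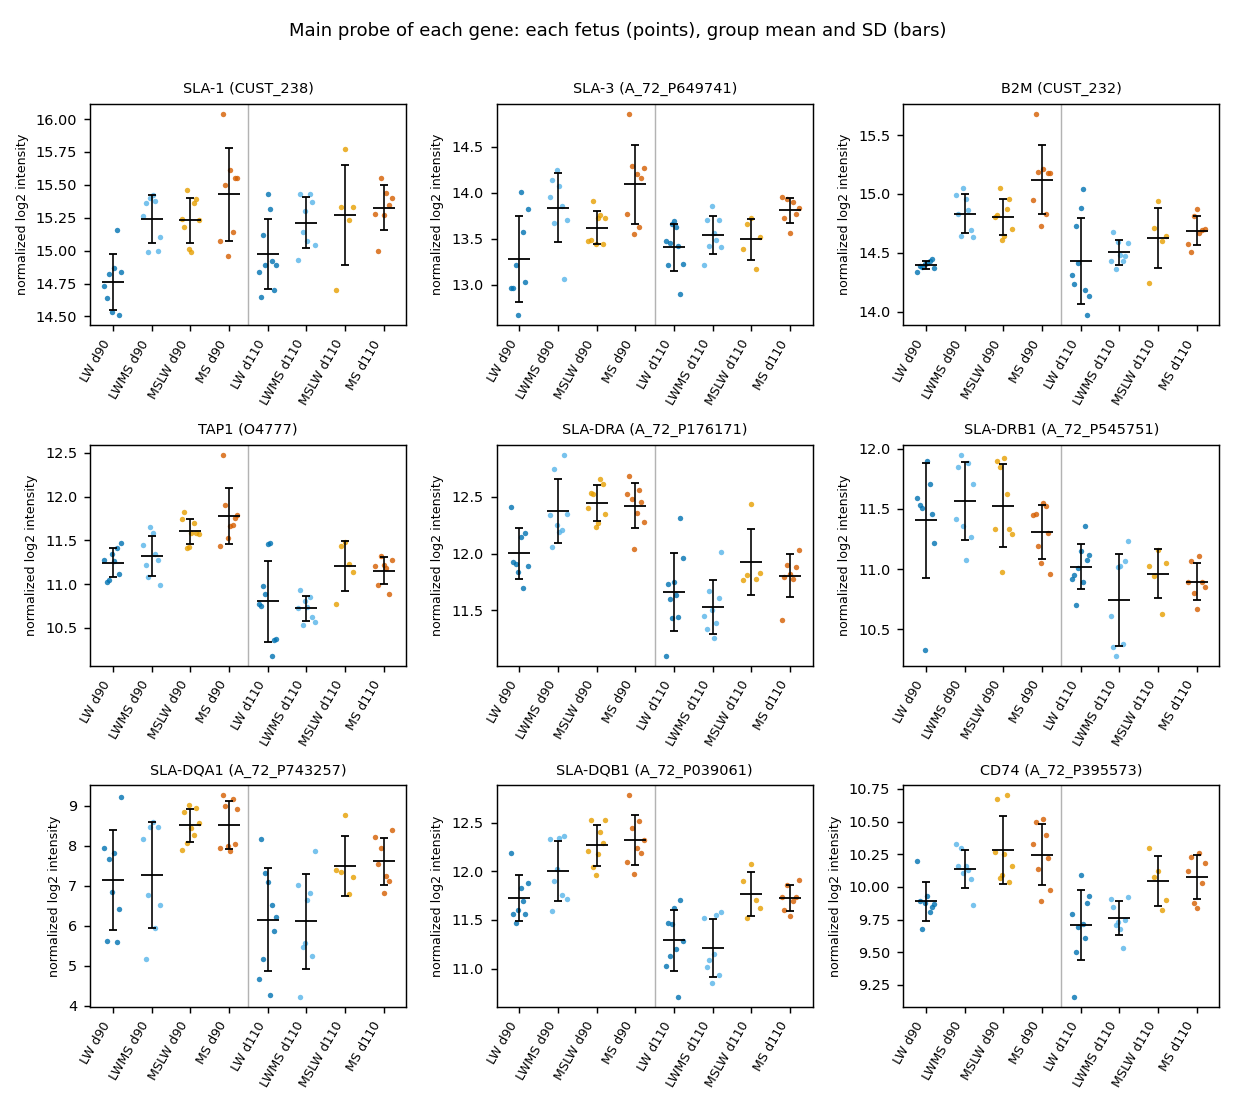
Normalized log2 intensity (vertical axis) of the main probe of each of the 9 genes in the 8 groups (horizontal axis; day 90 left and day 110 right of the grey line). Each point is a fetus and the black bars are the group mean and SD; B2M in LW at day 90 lies between 14.34 and 14.45, below all 8 MS fetuses, while the SLA-DRB1 groups of one day overlap.

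Members were higher in Meishan than in Large White, and no member probe was called lower. In the limma fit over all 42436 kept probes, at an adjusted p below 1%, 26 of the 48 probes were higher in MS at day 90 (of all probes 6.23% were higher, 6.61% lower and 12.8% either way) and 18 at day 110 (13.7% of all higher, 15.2% lower, 29% either way). Averaged over both days 33 of 48 were higher and 0 lower, against 14.3% of all probes higher, 15.5% lower and 29.8% either way. No member probe passed as lower in any of these 3 comparisons, and 1 had an unadjusted p below 0.05 in that direction over both days. The median difference of the 48 was 0.458 log2 units, that of all kept probes 0.007. Without MS replicate 2 of day 90 the counts were 21 at day 90, 18 at day 110 and 31 over both days. The groups did not overlap, MS above LW, for 5 probes at day 90 and 2 at day 110, where 3.09% and 3.77% of all probes were so placed. The levels of leucocyte and macrophage markers overlapped between the breeds. Over both days 1 of 7 general leucocyte genes was higher in MS and 1 lower, as were 1 and 1 of 13 macrophage genes. The mean level of the leucocyte genes was 9.46 to 9.59 (LW) and 9.40 to 9.71 (MS) at day 90, and 8.44 to 9.02 and 8.55 to 9.01 at day 110. That of the macrophage genes was 8.56 to 8.94 and 8.59 to 9.06 at day 90, and 7.55 to 8.54 and 7.96 to 8.37 at day 110. Of 8 fibroblast genes 6 were lower in MS over both days and 0 higher, among them LUM (-0.71 ± 0.08) and COL1A2 (-0.58 ± 0.09). By day, 0 of the 8 were called at day 90 (median 0.1) and 6 were lower at day 110 (median -0.79). Of all genes 6.81% and 17.7% were lower at these days. The part of the fibroblast genes in the members' difference was not tested. In a piece of muscle, more cells of a type and more RNA per cell cannot be told apart.

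The light chain moved evenly, and not every heavy chain probe was called. All 9 B2M probes were higher in MS over both days, by 0.45 to 0.55 log2 units, 9 of 9 at day 90 and 6 of 9 at day 110. The main one differed by 0.49 ± 0.08 (SE), 1.40-fold, adjusted p = 5.56e-07. Its difference was 0.72 ± 0.11 at day 90 (adjusted p = 6.92e-07) and 0.26 ± 0.11 at day 110, where it missed the threshold (adjusted p = 0.0559). Of the 7 SLA-1 probes 5 were higher, and all 7, called or not, lay between 0.48 and 0.75. CUST_174_PI427286967 differed by 0.62 ± 0.08 (adjusted p = 1.25e-08) and was higher in MS on all 8 slides at day 90 and on all 6 slides that held both breeds at day 110. Of the 8 SLA-3 probes 5 were higher, from 0.40 ± 0.12 in A_72_P440386 (adjusted p = 0.00749, and 0.0194 without MS replicate 2) to 0.76 ± 0.14 in A_72_P517623 (adjusted p = 1.31e-05). Of the 3 TAP1 probes only the bright O4777, listed under a transcript outside the pig table, passed, at 0.44 ± 0.09 (adjusted p = 0.000106), while the dim A_72_P172206 and A_72_P223837 gave 0.33 ± 0.20 and 0.28 ± 0.25.

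The class II genes did not move as a block. Of the 7 SLA-DRA probes 6 were higher in MS, and all 7 lay between 0.27 and 0.45. A_72_P683574 gave the largest value, 0.45 ± 0.09 (adjusted p = 4.24e-05), and the main probe A_72_P176171 gave 0.28 ± 0.09 (adjusted p = 0.00796), which rose to 0.0153 without MS replicate 2. None of the 4 SLA-DRB1 probes was called, and none had an unadjusted p below 0.05. Their differences ran from -0.11 to 0.03, each with an SE of 0.11 or 0.12, so the alpha chain of DR was higher where its beta chain was not called, though the difference between the chains was not tested. CD74 was higher by 3 of its 4 probes, 0.32 to 0.49, while O12719, listed under a transcript outside the pig table, gave -0.05 ± 0.22.

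**Figure D2:**
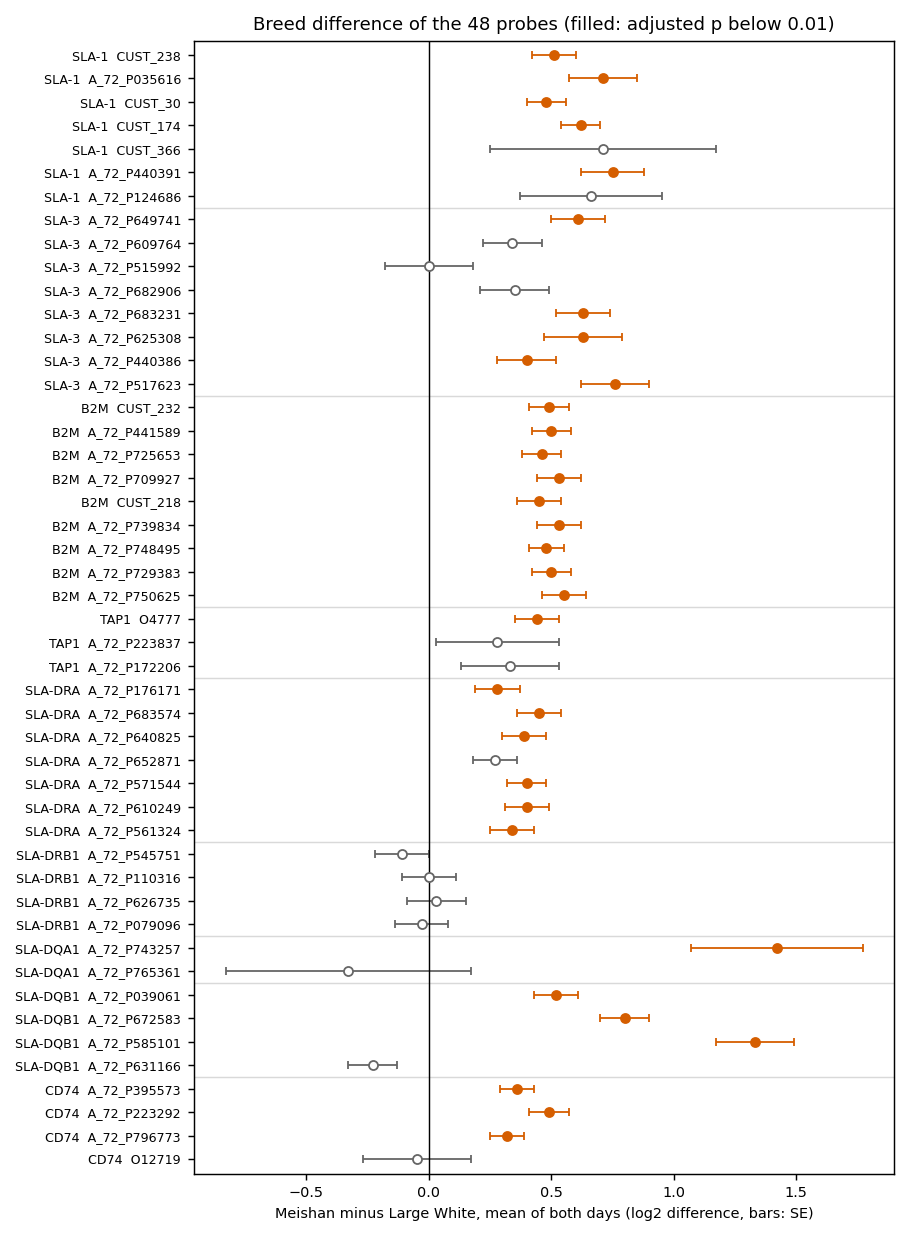
Meishan minus Large White, mean of both days, in log2 units (horizontal axis) for the 48 probes grouped by gene (vertical axis), with bars of 1 SE and filled points where the adjusted p was below 0.01. The B2M probes form a narrow column between 0.45 and 0.55, the SLA-DRB1 probes lie around 0, and the SLA-DQB1 and SLA-DQA1 probes spread from -0.33 to 1.42.

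The DQ genes showed the largest breed differences and the largest disagreement between probes of a gene. On SLA-DQB1 A_72_P585101 the LW fetuses gave 9.57 to 11.19 (median 10.19) and the MS fetuses 11.24 to 12.23 (median 11.72) at day 90. At day 110 they gave 9 to 10.92 (median 9.90) and 10.98 to 11.42 (median 11.14). The breeds did not overlap at either day. The difference over both days was 1.33 ± 0.16, 2.52-fold, adjusted p = 1.5e-09, and MS was higher on every slide. A_72_P672583 differed by 0.80 ± 0.10 (adjusted p = 5.35e-09) and the main probe A_72_P039061, which shares 17 bases with A_72_P585101, by 0.52 ± 0.09 (adjusted p = 5.05e-06). A_72_P631166, well above background on all arrays, went the other way without passing, -0.23 ± 0.10 (adjusted p = 0.0523), and was lower in MS on all 8 and all 6 slides. Of the SLA-DQA1 probes, A_72_P743257 was higher in MS by 1.42 ± 0.35, 2.68-fold (adjusted p = 0.000775). A_72_P765361 gave -0.33 ± 0.50 (adjusted p = 0.64), with 4.80 to 8.24 for LW and 4.77 to 7.51 for MS at day 90. Their spread within groups was wide, with residual SDs of 1.01 and 1.45, at percentiles 99 and 99.8 of all kept probes.

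**Figure D3:**
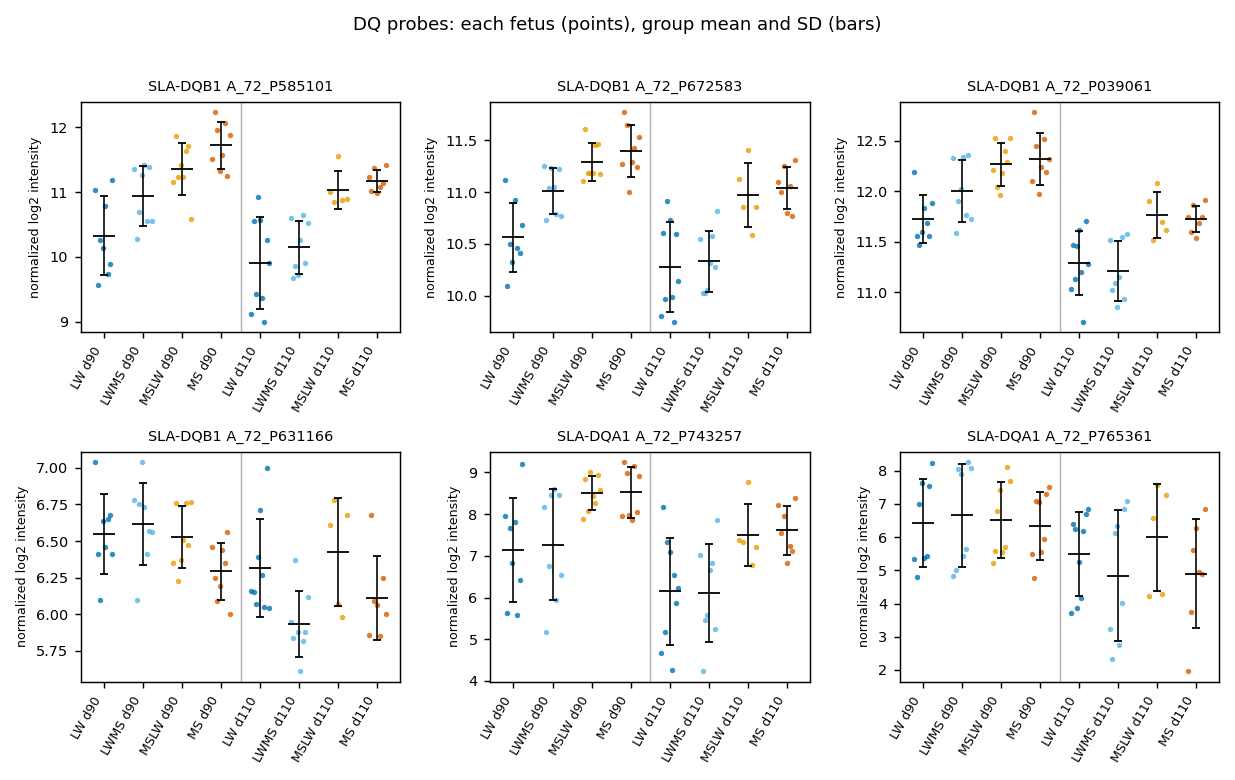
Normalized log2 intensity (vertical axis) of 4 SLA-DQB1 and 2 SLA-DQA1 probes in the 8 groups (horizontal axis). Points are fetuses and bars the group mean and SD; A_72_P585101 separates LW from MS at both days, while A_72_P631166 and A_72_P765361 do not.

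Whether a probe departed from the rest of its gene was tested on its value less the mean of the other kept probes of the gene in the same fetus, for 16020 probes of 5003 genes. Of the 48 member probes 5 departed in their breed difference, 10.4% against a background of 15%. Other settings gave 8 of 48 (median signal, normexp or deposited values) and 10 of 48 (slide as a block), with backgrounds of their own that are not given here. The 5 were SLA-DQB1 A_72_P585101 (0.97 ± 0.12, adjusted p = 1.56e-09), A_72_P631166 (-1.11 ± 0.13, adjusted p = 2.88e-10) and A_72_P672583 (0.26 ± 0.05, adjusted p = 6.61e-05), SLA-3 A_72_P515992 (-0.53 ± 0.12, adjusted p = 0.000406) and CD74 A_72_P223292 (0.28 ± 0.04, adjusted p = 1.88e-06). An odd probe also enters the mean that its neighbours are set against. The SLA-DQB1 departures are therefore not separate results, as A_72_P631166 lowers the mean for A_72_P585101 and A_72_P672583. The mean for CD74 A_72_P223292 likewise includes O12719, and no departure was computed without such a probe. The SLA-DQA1 pair differed by 1.75 ± 0.54 and missed the threshold (adjusted p = 0.0135). None of the 9 B2M, 7 SLA-DRA, 4 SLA-DRB1, 7 SLA-1 or 3 TAP1 probes departed.

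The SLA-3 pair shown above differs at only 2 overlapping bases. A_72_P515992, with C at the capital, spread at day 110 over 12.05 to 14.03 (median 13.57) in LW but over 12.77 to 13.07 (median 12.98) in MS, so that the LW fetuses lay on both sides of all MS fetuses. Its breed difference was 0.00 ± 0.18. Its neighbour A_72_P609764 gave 12.51 to 13.85 (median 13.28) and 13.20 to 13.54 (median 13.43) in the same fetuses, with a difference of 0.34 ± 0.12 (adjusted p = 0.0193). The residuals of the pair over 61 fetuses correlated at 0.91. The SLA-1 and SLA-3 pair with 4 mismatches gave differences of 0.75 ± 0.13 (A_72_P440391, adjusted p = 1.97e-06) and 0.40 ± 0.12 (A_72_P440386), and the difference between these was not tested. Both probes are also listed for SLA-2 and may read it too.

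The 3 overlapping SLA-1 probes gave breed differences of 0.66 to 0.71 but differed in level and spread. A_72_P035616 was higher in MS by 0.71 ± 0.14 (adjusted p = 4.13e-05). CUST_366_PI427286967, identical to it over 31 shared bases, ranged from 8.96 to 14.36 in MSLW at day 90, and the 5 MSLW fetuses at day 110 gave 8.37, 13.47, 14.45, 13.37 and 13.36. Its residual SD was 1.32, at percentile 99.7, and its difference of 0.71 ± 0.46 was not called (adjusted p = 0.22). A_72_P124686, with A at the capital and a further substitution outside the stretch, was dimmer, with a mean of 9.06 against 15.13 for A_72_P035616. It gave 0.66 ± 0.29 (adjusted p = 0.0628), and its residuals correlated at -0.12 with those of A_72_P035616. Within genes the residual correlations of probes ran from 0.95 to 0.97 for SLA-DRB1, 0.78 to 0.96 for SLA-DRA and B2M, 0.37 to 0.91 for SLA-3, 0.21 to 0.89 for SLA-DQB1 and -0.16 to 0.96 for SLA-1. That of the SLA-DQA1 pair was 0.19. These values describe the 61 fetuses after removal of group and slide means, and dim probes share less signal.

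**Figure D4:**
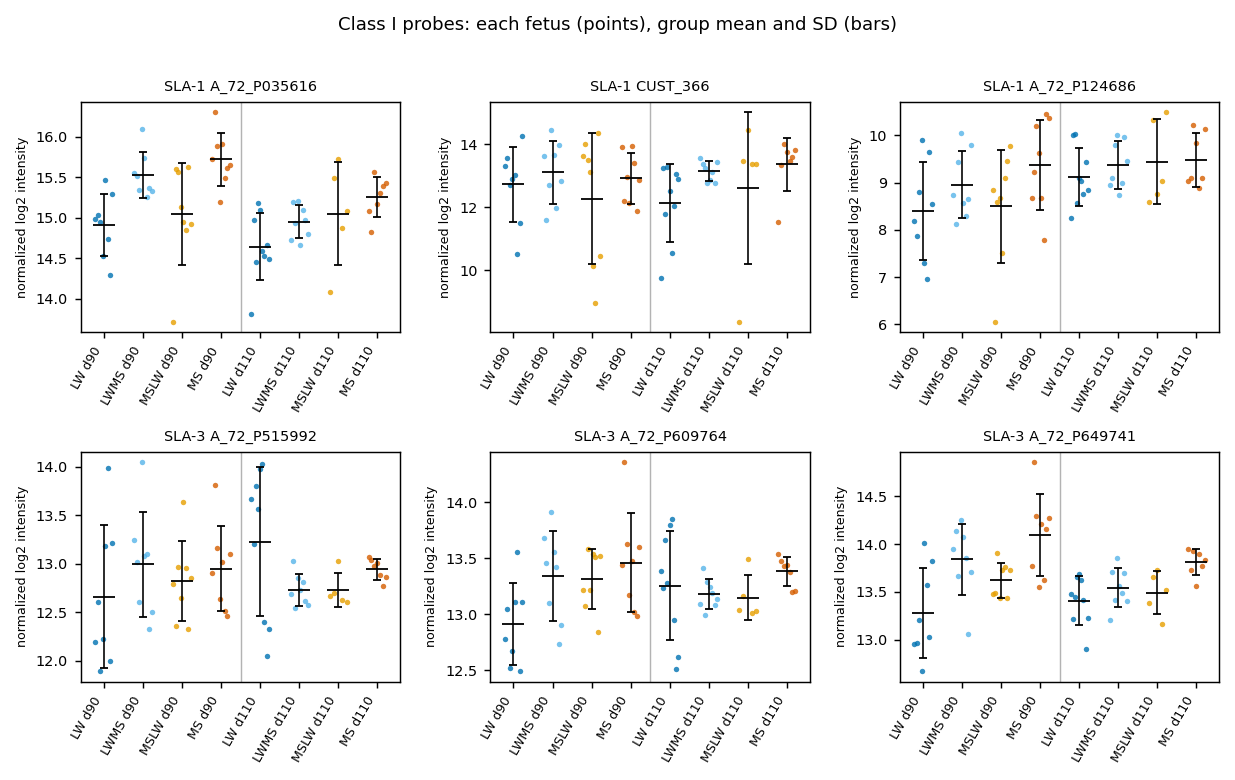
Normalized log2 intensity (vertical axis) of 3 SLA-1 and 3 SLA-3 probes in the 8 groups (horizontal axis). Points are fetuses and bars the group mean and SD; CUST_366 reaches down to 8.37 in MSLW at day 110, and A_72_P515992 spreads in LW at day 110 from 12.05 to 14.03, around the MS fetuses.

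Most class II probes fell with age in LWMS, and fewer were called in the other genotypes. Of the 21 class II and CD74 probes, 17 were lower at day 110 than at day 90 in LWMS, 6 each in MS and in MSLW and 2 in LW, and none was higher. Among all probes 25.7%, 28.1%, 23.8% and 23.5% were lower in these genotypes, so that only the LWMS count of these members stood well above its background. Outside the members, all 7 probes under SLA-DQA, an older name of the DQ alpha chain, were lower at day 110 in LW and 6 of 7 in MS. With each array scaled to its 75th percentile, 18 of all 48 members were lower in LWMS, 3 in MS and 0 in both MSLW and LW. The shares of all probes with that scaling are not given here, so these counts are not set against a background. With quantile normalization the median differences of the 21 class II and CD74 probes were -0.739 in LWMS, -0.366 in MS, -0.412 in MSLW and -0.306 in LW. The medians of all probes then lay between 0.022 and 0.043. Over all 48 members LW had 1 higher and 3 lower (of all probes 21.8% and 23.5%, 45.3% either way), MS 0 and 9 (28.6% and 28.1%, 56.7% either way), LWMS 0 and 21 (25.1% and 25.7%, 50.9% either way) and MSLW 0 and 6 (20.8% and 23.8%, 44.6% either way). The share of members called either way was below that of all probes in each genotype. Between genotypes the age changes were tested for MS against LW only: 0 of 48 differed in the limma fit (2.56% of all probes higher, 3.39% lower, 5.95% either way), and 3 had an unadjusted p below 0.05, all B2M. The count in MS was 7 without MS replicate 2 of day 90. The count in MSLW rested on few fetuses and fell to 3 without MSLW replicate 2 of day 90 and to 2 without replicate 2 or replicate 4 of day 110.

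In LWMS all 7 SLA-DRA probes fell, by 0.64 to 0.85 log2 units, all 4 SLA-DRB1 probes by 0.82 to 0.85 and all 4 SLA-DQB1 probes by 0.68 to 0.79. The main SLA-DRA probe A_72_P176171 fell by 0.85 ± 0.12 in LWMS (adjusted p = 2.8e-08), by 0.62 ± 0.13 in MS (adjusted p = 2.9e-05) and 0.52 ± 0.14 in MSLW (adjusted p = 0.00134), where the other scaling gave -0.33 and no call (adjusted p = 0.0512). In LW it gave -0.34 ± 0.12 and missed the threshold (adjusted p = 0.0137). SLA-DQB1 A_72_P039061 fell in all 4 genotypes with quantile normalization, by 0.79 ± 0.13 in LWMS (adjusted p = 3.69e-07), 0.60 ± 0.13 in MS (9.44e-05), 0.50 ± 0.15 in MSLW (0.00286) and 0.43 ± 0.12 in LW (0.00263). Scaled to the 75th percentile of each array it fell only in LWMS (0.68 ± 0.13, adjusted p = 1.15e-05), and the values in MS, MSLW and LW were -0.39, -0.33 and -0.32 with adjusted p of 0.0109, 0.0607 and 0.0337. CD74 changed less: A_72_P395573 fell by 0.38 ± 0.10 in LWMS (adjusted p = 0.00114), and the other genotypes gave between -0.24 and -0.17. The SLA-DQA1 probes gave the largest estimates, down to -1.81 ± 0.71, and none was called. TAP1 O4777 fell by 0.62 ± 0.14 in MS (adjusted p = 7.09e-05), by 0.60 ± 0.13 in LWMS (adjusted p = 8.59e-05) and by 0.44 ± 0.13 in LW (adjusted p = 0.00265). With the other scaling its fall in LW was not called (-0.37, adjusted p = 0.0134).

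General leucocyte and most macrophage markers fell over the same days. The mean level of the 7 leucocyte genes lay between 9.39 and 9.87 over all day 90 fetuses and between 8.41 and 9.18 at day 110, with 6 of the 7 lower in LW, LWMS and MSLW and 5 in MS. Of 13 macrophage genes 10 were lower in LW and 9 in each other genotype, among them C1QA, a complement chain made by macrophages, which fell by 0.92 to 1.08. PTPRC, the pan-leucocyte marker, was not called in any genotype (0.02 to 0.12). LYZ, lysozyme, of the macrophage list was higher in MS (0.81 ± 0.23) and MSLW (0.92 ± 0.25). Of 5 B cell genes 1 to 3 were higher in each genotype and 0 lower, with medians of 0.27 to 0.63. By main probes, 22.3% to 29.9% of all 12177 genes were higher with age and 26.4% to 31.4% lower, depending on the genotype. Against these shares a count of 1 or 2 higher among 5 B cell genes did not stand out. All 8 fibroblast genes were lower in every genotype, with medians of -2.17 to -1.23, and so were 5 of 7 endothelial genes. Of the 2 dendritic cell genes kept, CD83 was lower in MS (-1.99 ± 0.29) and LWMS (-1.21 ± 0.28), and neither was called in LW or MSLW. The part of any of these cells in the class II change was not tested.

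For class I and B2M the direction with age depended on the scaling in some genotypes. The main probes of the class II genes and CD74 had negative values in every genotype with both scalings, and only calls were lost. With quantile normalization 1 of 24 probes was higher in LW, and 2 in MS and 3 in LWMS were lower, all 5 of B2M. Scaling each array to its 75th percentile moved the median of all probes from 0.033 to 0.125 in MS, and the calls over the 48 members became 8 higher and 0 lower in LW, 3 of each in MS, 3 higher and 18 lower in LWMS, and 3 higher and 0 lower in MSLW. No share of all probes called is given for this scaling, so these counts cannot be read against a background. B2M CUST_232_PI427286967 gave -0.43 with the one scaling and 0.24 with the other in MS, and -0.33 and 0.19 in LWMS, so no direction with age is given for it.

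**Figure D5:**
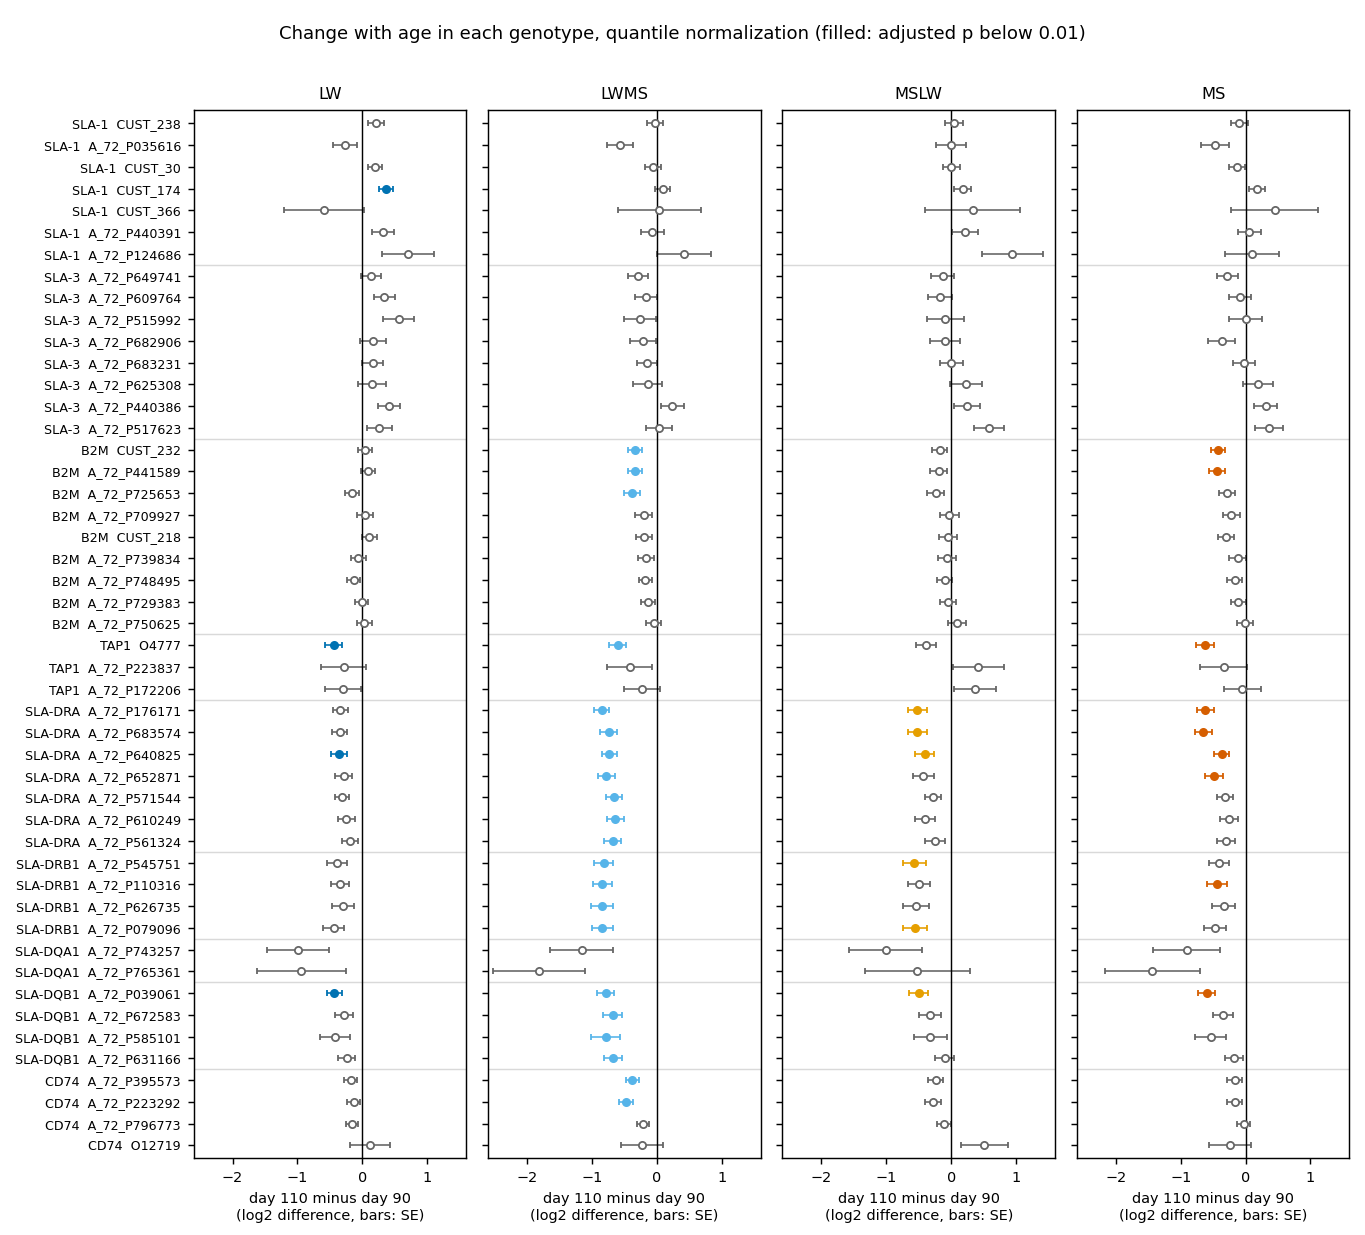
Day 110 minus day 90 in log2 units (horizontal axes) in LW, LWMS, MSLW and MS for the 48 probes grouped by gene (vertical axis), with quantile normalization, bars of 1 SE and filled points where the adjusted p was below 0.01. The SLA-DRA, SLA-DRB1 and SLA-DQB1 probes of LWMS lie between -0.85 and -0.64, while the class I and B2M probes, among which directions changed with the scaling, lie on both sides of 0, from -0.57 to 0.42 in LWMS.

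The crosses carry the same pair of breeds with the dam and sire exchanged. No member differed between LWMS and MSLW at day 90 (0 of 48 in the limma fit, 0.5% of all probes either way, 0.148% higher and 0.351% lower, 5 at an unadjusted p below 0.05). None differed at day 110 either (0 of 48, 0.912% of all probes either way, 0.37% higher and 0.542% lower), although 16 had an unadjusted p below 0.05 there, all lower in LWMS and 14 of them among the 21 class II and CD74 probes. Over all probes 15% had such a p. SLA-DQB1 A_72_P672583 gave -0.64 ± 0.17 (adjusted p = 0.0214), A_72_P039061 gave -0.55 ± 0.15 (adjusted p = 0.0248) and A_72_P585101 gave -0.89 ± 0.26 (adjusted p = 0.0534). The 5 MSLW fetuses of day 110 had 11.00, 10.85, 11.55, 10.87 and 10.89 on A_72_P585101, all above the highest of the 8 LWMS fetuses, 10.64. For SLA-DQA1 A_72_P743257 the means at day 90 were 7.26 in LWMS and 8.51 in MSLW, close to LW (7.13) and MS (8.52), each the breed of the sire, and the difference of -1.24 ± 0.49 did not pass (adjusted p = 0.346). Against the mid-point of the purebreds, the mean of both crosses did not differ for any member (0 of 48 in the limma fit, 0.144% of all probes either way, 0.139% higher and 0.00471% lower, 3 at an unadjusted p below 0.05), with values from -0.20 to 0.21.

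Of the other genes of the pathway, grouped by role and read by their main probes, 7 of 9 other class I genes were higher in MS over both days and 0 lower. Over all 12177 genes 15.1% were higher and 17.2% lower. SLA-5 was higher by 0.74 ± 0.11 (adjusted p = 3.35e-07) and SLA-8 by 0.59 ± 0.08 (adjusted p = 6.77e-09). A further SLA-5 probe, the dimmer A_72_P414498, gave 0.04 ± 0.47 (adjusted p = 0.957). Of 15 genes of peptide supply and loading 5 were higher and 2 lower. The 3 immunoproteasome subunits were higher, PSMB9 by 0.58 ± 0.09, PSMB10 by 0.50 ± 0.09 and PSMB8 by 0.77 ± 0.23, while the loading chaperones CANX and PDIA3 were lower by 0.14 ± 0.04 and 0.21 ± 0.05. Of 14 further class II and processing genes 4 were higher, among them the peptide exchange factor SLA-DMB (0.27 ± 0.07), and 1 lower, the protease LGMN (-0.32 ± 0.05).

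Interferon-related genes were mixed. Of 15 MHC transcription factors and interferon signalling genes 3 were higher, the receptor chains IFNGR1 (0.28 ± 0.07) and IFNGR2 (0.30 ± 0.07) and the kinase JAK2 (0.36 ± 0.11), and 1 was lower, RFXAP (-0.20 ± 0.06). NLRC5, the class I transactivator, was not called (0.30 ± 0.14, adjusted p = 0.0817). Of 22 interferon-stimulated genes 6 were higher, led by MX1 (1.43 ± 0.29) and ISG15 (1.19 ± 0.27), and 1 was lower, OASL (-0.54 ± 0.11). By day, 5 of these 22 were higher and 1 lower at day 90 (median 0.56), where 6.67% of all genes were higher and 6.81% lower. At day 110 the counts were 1 and 1 (median 0.08), with 14.5% and 17.7% of all genes. MS replicate 2 of day 90 lay 0.90 above its group on these genes, and no count without it is given for them. The part of interferon in the class I difference was not tested. Of the lymphocyte lists, 2 of 5 B cell genes were higher, and 1 of 6 T and NK cell genes was higher and 2 lower, with LCK at -1.29 ± 0.10. Of the 2 dendritic cell genes kept, 1 was lower, CD83 (-1.78 ± 0.20, adjusted p = 5.98e-11, limma), and the other was not called.

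Fetuses that were high for one of SLA-1, SLA-3, B2M and TAP1 within their group were often high for the others, and class II pairs were mixed. After removal of group and slide means, the main probes of B2M and SLA-1 correlated at 0.80 over the 61 fetuses, B2M and TAP1 at 0.79, SLA-1 and SLA-3 at 0.74, and SLA-DQA1 and SLA-DQB1 at 0.72. SLA-DRA correlated with SLA-DQB1 at 0.64 but with SLA-DQA1 at 0.33, and SLA-DRB1 with SLA-DQB1 at -0.15. Of 11552 other genes the most alike to B2M was the B2MB probe (0.97), to SLA-1 HLA-F (0.90), to SLA-3 LOC100622689 (0.96), to SLA-DRA the HLA-DRA probe (0.84), to SLA-DQA1 and SLA-DQB1 the HLA-DQB1 probe (0.73 and 0.87), to CD74 HLA-DRA (0.69) and to TAP1 the immunoproteasome subunit PSMB9 (0.82). SLA-DRB1 had no close match, NEU1 being the nearest at 0.58, and it correlated with its partner SLA-DRA at 0.27. The points share arrays, and probes with pig and human names can bind the same transcripts.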

How the data were processed

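The deposited scanner files hold, per the file headers, linear Cy3 intensity of 1 array each, read by Agilent Feature Extraction 10.10.1.1 (per the submitters' processing notes, which also name limma). The series table deposited by the authors holds quantile-normalized log2 values of 44368 spots and served as an alternative. The processed intensity of 61 arrays was quantile normalized and log2 transformed, non-uniform spots were set missing, and 42436 probes were kept. limma 3.58.1 in R 4.3.3 fitted 8 group means with empirical Bayes moderation. Benjamini-Hochberg adjustment ran over all kept probes, with a threshold of 1%. The study's random sow effect was left out because the labels do not give the sow. No reads or counts underlie these values, and the number of arrays limits the precision. Every member probe was described; of other lists at most 5 genes were named, those with the largest called difference by their main probe, plus defining markers and, chosen after their values were seen, genes of small counts (CANX, PDIA3, OASL, LYZ) and NLRC5, not called. The likeness measure was Pearson's r of residuals after groups and slides. The fits were tested on simulated data. Alternatives were the signal column, normexp (offset 50), scaling, filters, deposited values, slide as a block and left-out fetuses. The members and lists were chosen with earlier results of these data known.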

Additional observations from a re-analysis of the deposited data

Results flagged for a closer look

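In each of 384 sets (48 probes in 8 groups) the gap of the highest or lowest fetus to its neighbour was compared with the range of the group, and 28 sets held a fetus far from the rest. Chance alone flags about 1 set in 20, and probes of one gene share their fetuses. The values that follow are normalized log2 intensities.

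MS fetuses at day 90 gave 9 of the 28. Replicate 2 was far above its group on SLA-1 A_72_P440391 (13.17), SLA-3 A_72_P609764 (14.36), TAP1 O4777 (12.48) and the B2M probes A_72_P709927 (15, the next being 14.21), A_72_P739834 (13.87), A_72_P748495 (13.76) and A_72_P750625 (12.67). Replicate 4 of that group was far below on SLA-DRA A_72_P652871 (11.43) and CD74 A_72_P223292 (9.61). Among MS fetuses at day 110, replicate 1 was low on SLA-1 CUST_366_PI427286967 (11.53) and on SLA-DRA A_72_P176171 (11.42) and A_72_P652871 (10.95), and replicate 4 was high on TAP1 A_72_P172206 (5.84).

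Among MSLW fetuses at day 110, replicate 1 was low on SLA-1 CUST_366_PI427286967 (8.37, the next being 13.36), and replicate 3 was high on SLA-3 A_72_P515992 (13.03), SLA-DRA A_72_P176171 (12.44) and SLA-DQB1 A_72_P585101 (11.55). At day 90 MSLW replicate 1 was low on SLA-1 A_72_P035616 (13.72), replicate 6 was high on TAP1 A_72_P172206 (5.33), and replicate 2 was far below on CD74 O12719 (3.83, the next being 7.61) and TAP1 A_72_P223837 (1.92, the next being 6.71).

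The other 7 were spread over the groups. LW replicate 4 at day 90 was low on SLA-DRB1 A_72_P079096 (9.54) and A_72_P545751 (10.33), and LW replicate 2 was high on TAP1 A_72_P172206 (5.41). LW replicate 8 at day 110 was low on TAP1 A_72_P223837 (5.45). LWMS replicate 1 at day 90 was high on CD74 A_72_P796773 (9.55), and LWMS replicate 2 at day 110 was high on B2M A_72_P725653 (13.86) and A_72_P739834 (12.83). No cause was tested for any of these.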

How the results depend on the processing

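No paired analysis was possible because the replicate numbers only follow accession order. Counts of calls among the 48 probes ranged over the alternatives from 21 to 28 (MS against LW at day 90), 14 to 26 (day 110) and 31 to 36 (both days), all higher in MS. The shares of all probes in the alternatives are not given here. Counts that moved by over 1.5 times included the age change in LW, 8 with scaling to the 75th percentile (all higher) and 1 with LW and MS fetuses only, and that in MSLW, 3 with that scaling, 3 without MSLW replicate 2 of day 90 and from 2 to 9 with each MSLW fetus of day 110 left out. The MS against LW difference in age change had 1 call with normexp and 1 with slide as a block. Probes departing from their gene, 5 in the report, numbered 8 with the median signal, 8 with normexp, 8 with deposited values and 10 with slide as a block. The age change reversed with the 75th percentile for SLA-1 CUST_238_PI427286967 (0.57 in MS, 0.48 in LWMS) and for B2M CUST_232_PI427286967 (0.24 and 0.19). For single probes 2123 alternative values stayed on their side, 46 lost and 15 gained a call, and 40 uncalled values changed sign or moved. The causes were not tested. Settings without MS or MSLW replicate 2 of day 90 were chosen after seeing the data. Dim SLA-DQA1 probes, and the dim 2 of 3 TAP1 probes, could show only large differences.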

Other observations

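Probes with older or human names that read the same family gave values beside those of the members. SLA-DQA is an older name of the DQ alpha chain, and its 7 probes were all higher in MS than in LW over both days, by 0.35 to 1.19 log2 units. All 7 fell with age in LW, by 0.78 to 1.33, and 6 of 7 fell in MS. The brightest, A_72_P721473, differed between breeds by 0.42 ± 0.08 (adjusted p = 1.84e-05, limma). It ran from 11.99 to 12.63 in LW and 12.28 to 12.90 in MS at day 90, and from 10.80 to 11.43 and 11.26 to 11.72 at day 110. The probes named SLA-DQA1 did not pass for age in any genotype. The HLA-DQA1 probe O6188, dim with a mean of 4.30, went the other way with age. It rose by 1.1 in MS (adjusted p = 0.000179, limma) and gave 0.51 in LW, not called (adjusted p = 0.0661). Its breed difference was 0.04 ± 0.18 (adjusted p = 0.898).

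SLA-8, a nonclassical class I gene, had 4 probes, all higher in MS, by 0.55 to 1.09. A_72_P541846 ran from 6.86 to 7.93 in LW and 8.01 to 8.97 in MS at day 90, and from 6.84 to 7.41 and 8.05 to 8.76 at day 110, with no overlap at either day and the crosses between (medians of 7.96 and 8.10 at day 90, 7.80 and 7.94 at day 110). The HLA-E probe O10747 had the largest breed difference of these, 3.20 ± 0.47 (adjusted p = 1.26e-07). It was dim in LW, well above background in 7 of 8 fetuses at day 90 and 5 of 9 at day 110, where values ran from 1.81 to 8.07, and it was above background in every fetus of the other groups, with 8.60 to 9.58 in MS at day 110. A difference in RNA level and a difference in the fit of the probe to an allele cannot be told apart for it.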
